A study of Mus musculus with 2 samples.

Results

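Genes on mouse chromosome 6 around Pianp, a gene whose transcript was much lower in the library labelled KO than in the library labelled WT, were examined for a shift of the whole region. The set held 35 protein-coding genes between Pex5 and Plekhg6, matched by symbol in both count tables, of 52636 genes in each table. They were listed by position (chr6:124396816-125380793, GRCm38), and 2 of them (Pex5 and Clstn3) end before the nominal range of the list and 4 (Ltbr, Scnn1a, Tnfrsf1a and Plekhg6) start after it. The region was selected on the fall of Pianp, the ratio of its counts between these same libraries. That value and all others from this comparison are therefore given as a description. Complement, glycolysis and mitochondrial ribosome genes of the region were kept out of the list and are given separately. Pianp was 14.04-fold lower in the KO library, the genes on either side of it stood at nearly equal levels in both libraries, and the other listed genes did not fall with it as a block.

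The libraries were 1 from wild-type C57BL/6 mice and 1 from C57BL/6 mice lacking the microRNA miR-29a (labelled miR-29a KO), both from animals aged 8 weeks with no treatment named in the labels. Each was prepared from the pooled retinas of 3 mice, and the labels name neither the kind of knockout allele nor the cells it acts in. Since each group has a single library, there is no replicate check, every difference is one between these libraries, and no p-value is given. Log2 ratios are of KO over WT, with 0.5 CPM added to each level, and a gene counted as measured when the higher library had 50 counts or more, called the count minimum here. Beside each fold of CPM (counts scaled so that every library sums alike) stands the 95% exact (Clopper-Pearson) counting interval, which covers counting error only.

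The interval from the start of Pex5 to the end of Plekhg6 spans 984 kb and is densely packed with short genes that do unrelated work. Genes that sit side by side can share open chromatin, a promoter that fires in both directions, or an enhancer, and a deletion, a duplication or a silenced domain shifts a run of neighbours together. Pianp encodes a glycoprotein of the neuronal surface that binds the immune receptor PILRα and a subunit of the GABA-B receptor. Its neighbours encode, among others, immune cell receptors (Cd4, Lag3, Cd27), receptors of the tumour necrosis factor family (Tnfrsf1a, Ltbr, Cd27), chromatin and ubiquitin regulators (Chd4, Cops7a, Usp5) and housekeeping enzymes.

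The library totals were 26805902 and 24876925 counts (WT first here and throughout), and a gene with 0 counts could still lie at up to 0.112 and 0.121 CPM. Markers went against the labelled tissue. Of 20 markers of retinal neurons and glia, 17 lay under 1 CPM in each library, 8 had 0 counts in both (Arr3, Aqp4, Calb1, Gad1, Grm6, Lhx1 and Pou4f2 among them), Slc6a9 (log2 ratio 0.33) and Gngt2 (0.09) led the 3 past the count minimum, and the list summed to 60.8 and 63.6 CPM. All 10 fibroblast markers were past the minimum and summed to 20939 and 21990 CPM, with Postn at a log2 ratio of -1.08 and Dcn at 0.93. Xist had 4288 and 0 counts. Each of 4 Y-linked genes had the higher level in KO (log2 ratios 2.29 to 3.001), 2 of them past the count minimum through that library alone. This difference in sex chromosome transcripts cannot be told apart from the labelled genotype. Mir29a and Mir29b-1 had 0 counts in both libraries and check neither label.

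Pianp (ENSMUSG00000030329, chr6:124996694-125003096, plus strand, GRCm38) had 2511 and 166 counts, or 93.7 and 6.67 CPM. Its level in the library labelled KO was 14.04-fold lower than in the other (counting interval 11.99 to 16.5). Per length it fell from 34.8 to 2.38 FPKM (the authors' values, scaled to gene length and library total), which moved it from rank 11 to rank 22 among the 35 genes. In bulk RNA, fewer cells of a type and less RNA per cell cannot be told apart. Of 8 markers of neurons, where Pianp is best known, 3 were past the minimum, and the list summed to 472 and 532 CPM, nearly all of it from Stmn2 (463 and 499.7 CPM). Snap25, a fusion protein of synaptic vesicles, had 27 and 359 counts (log2 ratio 3.31) and passed the minimum through the library labelled KO alone, Tubb3 had a log2 ratio of 1.17, and Rbfox3 and Elavl4 had 0 counts in both libraries. Eno2, a neighbour within the interval and no member of that list, encodes the neuronal enolase and was 2.32-fold lower, whereas the 3 measured markers of the list lay above 0. It is also a glycolysis gene, and the glycolysis genes Tpi1 (log2 ratio -0.93) and Gapdh (-0.68) of the interval lay below 0 too. The part of neuronal content in the Pianp value was not tested.

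Of the partners of the Pianp protein only Gabbr1, which encodes a GABA-B receptor subunit, was past the minimum, with 816 and 681 counts (log2 ratio -0.15). Pilra had 12 and 27 counts, Pilrb2 had 0 and 4, Gabbr2 had 1 in each and Pilrb1 had 0 in both.

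The genes on either side of Pianp did not share its fall. Cops7a, which encodes a subunit of the COP9 signalosome, lies 31.2 kb before Pianp and had 2659 and 2546 counts (99.2 and 102 CPM, log2 ratio 0.04). Zfp384, which encodes a zinc finger transcription factor, begins 6.05 kb after Pianp and had 893 and 872 counts (33.3 and 35.1 CPM, log2 ratio 0.07). Both counting intervals held 1, from 0.977 to 1.09 for Cops7a and from 0.957 to 1.16 for Zfp384. The next genes outward were Mlf2 (gap 59.5 kb, log2 ratio -0.10) and Ptms (76.6 kb, -0.19) before Pianp, and Chd4 (92.9 kb, 0.08) and Nop2 (129 kb, 0.38) after it. The lowest log2 ratio among these 6 neighbours was thus that of Ptms.

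The start regions of Pianp and of its flanking genes are shown because the break in level falls between them. Each is the RefSeq window (GRCm38.p6) from 250 bases before to 50 bases after the most upstream annotated start, written 5′ to 3′ on the strand of the gene, with CG dinucleotides in capitals. The windows are chr6:124965463-124965762 on the minus strand for Cops7a, chr6:124996470-124996769 on the plus strand for Pianp and chr6:125008876-125009175 on the plus strand for Zfp384.
Cops7a: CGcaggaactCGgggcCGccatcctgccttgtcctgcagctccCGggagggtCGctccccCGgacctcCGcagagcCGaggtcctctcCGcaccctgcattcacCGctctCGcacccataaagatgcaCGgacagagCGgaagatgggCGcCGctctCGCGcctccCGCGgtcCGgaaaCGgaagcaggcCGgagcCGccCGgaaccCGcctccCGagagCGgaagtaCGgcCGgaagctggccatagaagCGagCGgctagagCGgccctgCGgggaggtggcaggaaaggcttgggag
Pianp: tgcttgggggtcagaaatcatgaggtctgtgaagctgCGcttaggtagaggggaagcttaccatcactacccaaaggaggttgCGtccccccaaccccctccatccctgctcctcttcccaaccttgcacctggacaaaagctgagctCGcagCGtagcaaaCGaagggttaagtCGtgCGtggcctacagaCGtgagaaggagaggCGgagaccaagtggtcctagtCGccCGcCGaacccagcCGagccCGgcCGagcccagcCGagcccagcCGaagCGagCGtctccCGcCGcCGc
Zfp384: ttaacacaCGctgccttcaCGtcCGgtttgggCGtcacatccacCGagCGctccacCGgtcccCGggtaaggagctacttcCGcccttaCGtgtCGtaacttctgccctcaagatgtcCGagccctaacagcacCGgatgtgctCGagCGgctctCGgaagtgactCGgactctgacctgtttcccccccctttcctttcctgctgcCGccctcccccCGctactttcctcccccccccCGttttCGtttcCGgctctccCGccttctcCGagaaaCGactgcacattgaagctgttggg
The Pianp window held 22 CG dinucleotides and was 62.7% G or C, the Cops7a window 33 and 70.0%, and the Zfp384 window 25 and 61.3%, against a median of 7 and 52.7% over all 32851 promoter windows in the table. On either strand, GGGCGG occurred 0 times in the Pianp window, once in that of Cops7a and 2 times in that of Zfp384, and CCGGAAG occurred once in that of Cops7a and in neither of the others. CCAAT and TATAAA were in none of the 3. Pianp has 3 annotated starts, and the windows of the later ones held 6 CG dinucleotides each, and a gene-level count does not say which start the reads came from.

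**Figure D1:**
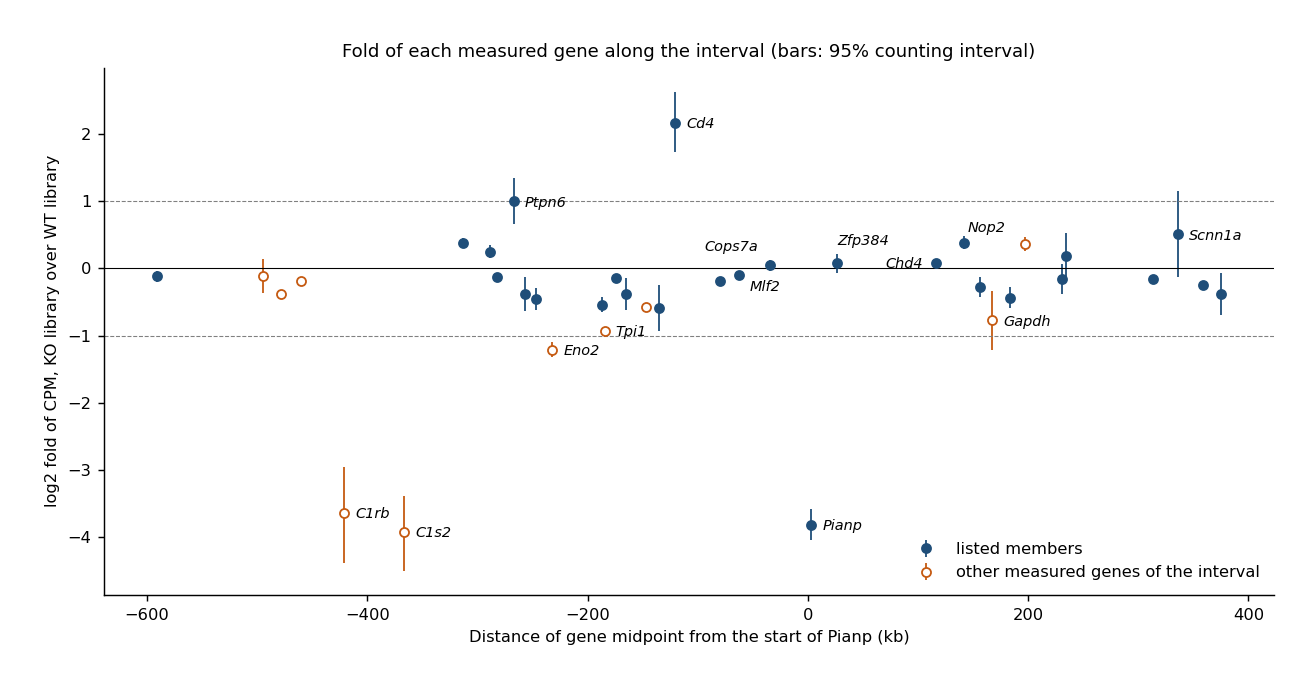
Each point is a measured gene of the interval, placed by the distance of its midpoint from the start of Pianp (x axis, kb) and by the log2 of its CPM in the library labelled KO over that in the library labelled WT (y axis), with bars for the 95% counting interval and dashed lines at 2-fold. Pianp lies near the bottom between Cops7a and Zfp384, which lie near 0, C1rb and C1s2, open symbols to the left, lie about as low, Eno2 lies just below the lower dashed line, and Cd4 lies highest.

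Of the 35 genes, 27 were past the count minimum and 8 were below it (Clstn3, Lrrc23, Gnb3, Lag3, Ing4, Acrbp, Lpar5 and Cd27). Just inside it stood Scnn1a with 38 and 50 counts, which passed through the library labelled KO alone, and just outside it Lag3 with 48 and 23. A gene was counted as higher or lower when its log2 ratio was 1 or more in size. Of the 27, 1 was higher by 2-fold or more (Cd4, 3.70%), against 4.47% of all 12382 measured genes, and 1 was lower (Pianp, 3.70%), against 2.82%. At 1.5-fold, 2 were higher (Cd4 and Ptpn6, 7.41%, against 13.3%) and 1 was lower (Pianp, 3.70%, against 8.88%). Since Pianp selected the region, nothing is read from the lower counts that hold it, and without it 0 of 26 were lower by 2-fold. The share higher by 2-fold was close to that of all genes. Over all 37 measured genes of the interval, which include the genes left out of the list, 6 (16.2%) were lower by 1.5-fold and 2 (5.41%) higher, and 26 (70.3%) had a log2 ratio below 0.

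The median of the listed genes lay slightly below that of all genes. The median log2 ratio of the 27 genes was -0.14 (25th to 75th percentile -0.36 to 0.13), against 0.06 over all measured genes (-0.25 to 0.37) and 0.10 over the 606 measured genes of chromosome 6. Without Pianp the median of the other 26 was -0.13, and without Cd4 as well the remaining 25 ran from -0.54 to 0.92. The log2 ratio was below 0 for 17 of 27 (63.0%), against 45.0% of all measured genes. Counting intervals lay wholly below 1 for 16 of the 27, wholly above 1 for 6 and held 1 for 5, but these intervals leave out any spread between mice. The same numbers over all measured genes were not taken, so nothing is read from these about the region. Base composition differed in the same direction: the median GC content of the longest transcript was 54.9% for the 27 and 49.9% for all measured genes.

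**Figure D2:**
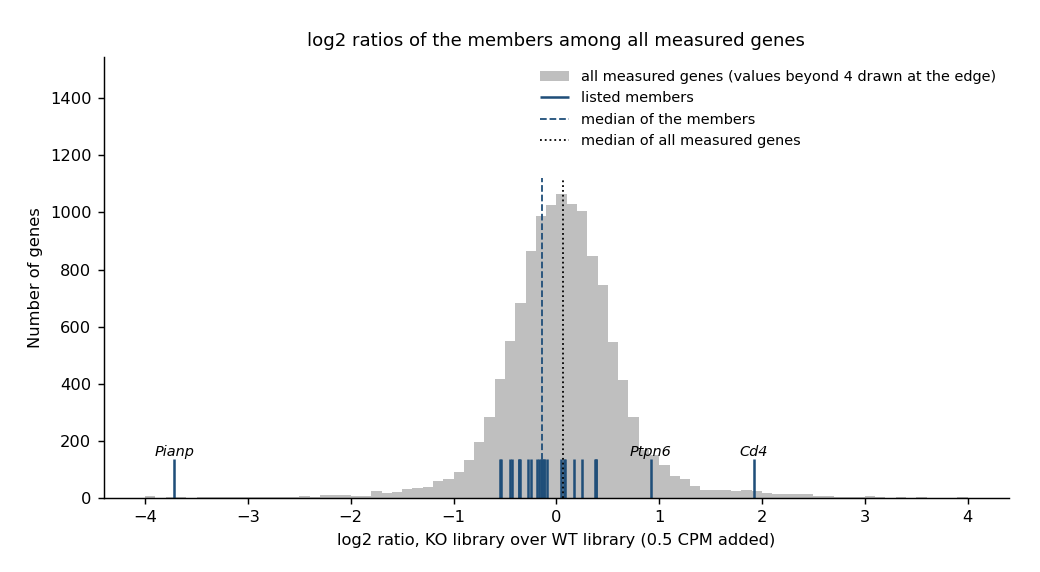
The grey histogram counts all 12382 measured genes by log2 ratio of the library labelled KO over that labelled WT (x axis, 0.5 CPM added), and short blue lines mark the 27 measured genes near Pianp. Their median (dashed, -0.14) lies just left of the median of all genes (dotted, 0.06), with Pianp far to the left and Cd4 to the right of the rest.

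Across all genes the log2 ratio fell with transcript GC content, from a median of 0.31 in the lowest of 10 equal bins (median GC 39.9%) to -0.31 in the highest (59.7%). When the median of each bin was subtracted from its genes, the median of the 27 became -0.01 and 14 of them lay below 0. Pianp then stood at -3.40 and Cd4 at 1.96, and Ptpn6 passed 2-fold with 1.05. The sign of small ratios depended on such settings: over the main values and the 8 other settings that can change a ratio, 12 of the 27 were below 0 in each, 5 were above 0 in each and 10 took both signs. The same split over all measured genes was not taken, so no lean to either side is read from it.

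**Figure D3:**
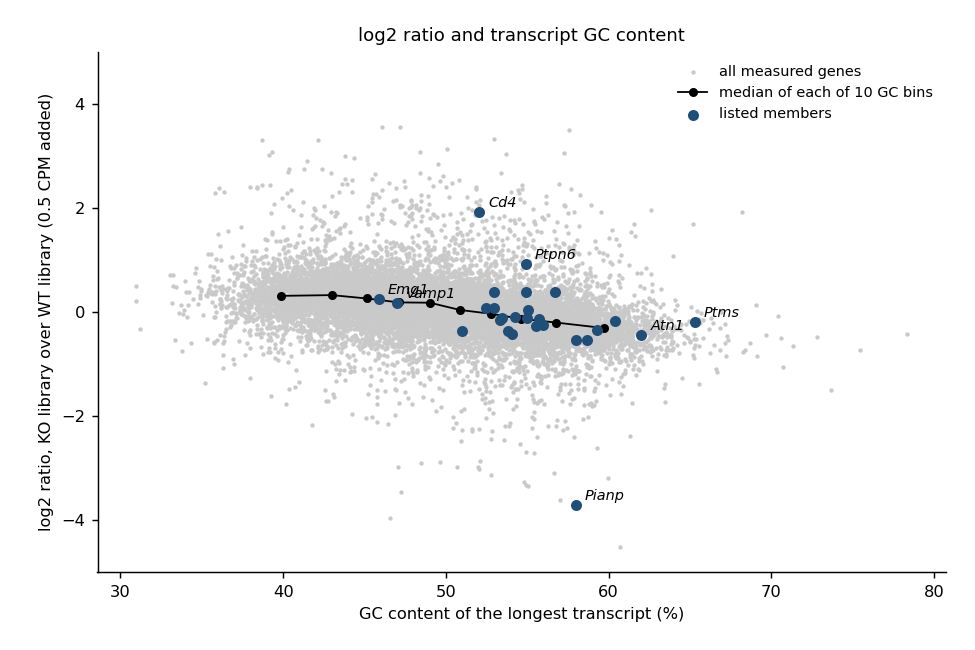
Grey points are measured genes by GC content of the longest transcript (x axis, %) and log2 ratio (y axis, 0.5 CPM added), black points with a line are the medians of 10 GC bins, and blue points are the 27 measured genes near Pianp. Most blue points follow the falling line on the GC-rich side, while Pianp lies far below it and Cd4 and Ptpn6 above it.

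Among the immune receptor genes Cd4 was the one that rose past 2-fold. Cd4 (chr6:124864692-124888221, minus strand) encodes the coreceptor of helper T cells for MHC class II, which some dendritic cells and macrophages also carry. It had 53 and 221 counts, or 1.98 and 8.88 CPM (0.519 and 2.24 FPKM), and was 4.49-fold higher in the library labelled KO (counting interval 3.32 to 6.18). Ptpn6, which encodes the phosphatase SHP-1 of blood cells, had 109 and 202 counts, or 4.07 and 8.12 CPM. It was 2.00-fold higher (1.57 to 2.54), with a log2 ratio of 0.92 after the addition of 0.5 CPM. Lag3, an inhibitory receptor of T cells that adjoins Cd4, went the other way at low level, with 48 and 23 counts. Cd27, a receptor of T and B cells, had 3 and 4 counts.

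Myeloid markers moved with Cd4 and Ptpn6. Of 15 listed, 13 were past the minimum, all 13 were higher by 2-fold or more (median log2 ratio 2.06), 2 of them past the minimum through the library labelled KO alone, and the list summed to 189 and 709.8 CPM. Fcer1g, an immunoglobulin receptor chain, was 5.70-fold higher (4.75 to 6.88), Itgam, an integrin of macrophages, had 8 and 81 counts (log2 ratio 2.23), and Cx3cr1 (0 and 5 counts) and Aif1 (10 and 20) were below the minimum. Of 12 lymphocyte markers 0 were past the minimum and 9 had 0 counts in both libraries, Cd3e, Cd8a and Nkg7 among them, with the largest counts for Lck (27 and 10). Their sum was 1.31 and 0.884 CPM. The part of myeloid RNA in the values of Cd4 and Ptpn6 was not tested. Endothelial markers were split, with sums of 34.7 and 50.7 CPM. Of 6 measured 4 were higher, led by Kdr (log2 ratio 1.83) and Cdh5 (1.75), but 3 of these 4 passed the minimum through the library labelled KO alone. Egfl7 (463 and 295 counts, -0.52) and Emcn (212 and 163, -0.25), named after their values were seen, lay below 0.

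Genes for the ligands and partners of Cd4 and Lag3 were scarce, with 1 exception. H2-Ab1 had 23 and 2 counts, H2-Eb1 27 and 13, Cd74 3 and 8, Ciita 16 and 4, and Fgl1 4 and 1, while H2-Aa had 0 in both. Lgals3, which encodes a galectin that binds Lag3 among many glycoproteins, was abundant and level at 863 and 861 CPM (log2 ratio 0.00).

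The measured genes nearest to the interval on its Pex5 side are myeloid too. Cd163, the haemoglobin scavenger receptor of macrophages, was the only measured gene within 1 Mb on that side and had 8 and 62 counts (8.35-fold higher, 3.99 to 20.2). Beyond it, the lectin genes Clec4d (45 and 352 counts, 8.43-fold, 6.17 to 11.8) and Clec4n (61 and 393, 6.94-fold, 5.29 to 9.25) were higher as well. On the Plekhg6 side the only measured gene within 1 Mb was Cd9, a tetraspanin gene, with 12654 and 15775 counts (log2 ratio 0.43). Cd163 and Clec4d passed the minimum through the library labelled KO alone, so their log2 ratios had to lie above 0. With 1 measured gene on each side within 1 Mb, nothing is read from the flanks about the interval.

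**Figure D4:**
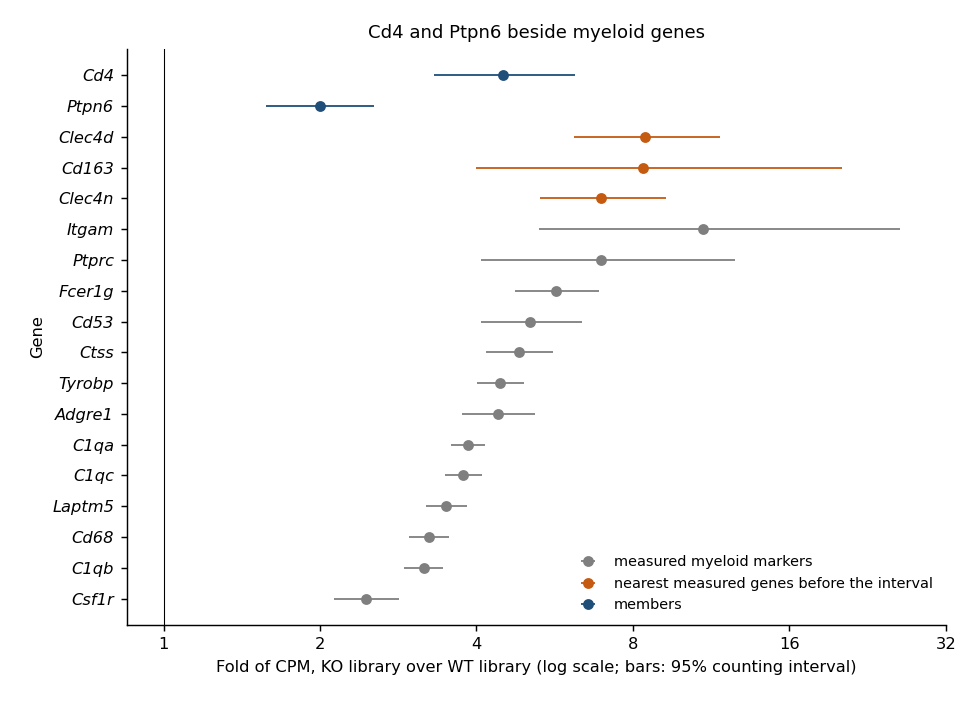
Points give the fold of CPM, library labelled KO over library labelled WT (x axis, log scale), for Cd4 and Ptpn6 (blue), the 3 nearest measured genes before the interval (orange) and the 13 measured myeloid markers (grey), with bars for the 95% counting interval. Cd4 at 4.49-fold lies within the spread of the grey points, and Ptpn6 at 2.00-fold lies below each of them.

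Of the receptors of the tumour necrosis factor family, Tnfrsf1a and Ltbr were abundant and within 1.5-fold, while Cd27 had 3 and 4 counts. Tnfrsf1a, the main receptor for tumour necrosis factor, had 8681 and 6765 counts (log2 ratio -0.25), and Ltbr, the lymphotoxin beta receptor, had 6053 and 5010 (-0.16). Both ranked among the 5 highest of the 35 genes per length in each library, at 132 and 107 FPKM for Tnfrsf1a and 101 and 87.0 FPKM for Ltbr. Of 20 other genes of this signalling pathway 15 were past the minimum, with 0 higher and 0 lower by 2-fold and a median log2 ratio of 0.08. The largest ratios were those of the transcription factor gene Nfkb1 (0.80) and the adaptor gene Traf3 (0.74). The ligands were near 0, with 2 and 18 counts for Tnf, 2 and 10 for Lta, 0 and 2 for Ltb, and 0 in both for Cd70 and Tnfsf14.

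Chromatin and transcription regulators were within 1.5-fold where measured. Chd4, the ATPase of the NuRD remodelling complex, had 7408 and 7289 counts (log2 ratio 0.08). The corepressor gene Atn1 had 778 and 526 counts (-0.45), a ratio that went to -0.14 under the GC correction. Atn1 shares most of its exonic bases with another annotated gene, and how reads in such exons were counted is not known. Iffo1, an intermediate filament family gene, had 834 and 639 counts (-0.27). Ing4, which encodes a histone reader, had 6 and 1 counts. Among 12 other NuRD genes, all past the minimum, 0 were higher and 0 lower by 2-fold (median 0.04), with the largest ratios for the deacetylase gene Hdac2 (0.70) and the methyl-CpG binding gene Mbd2 (0.28).

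Ubiquitin pathway genes of the interval lay below or near 0, and other COP9 signalosome genes lay on both sides of it. Cops7a is described above, and the 9 other COP9 signalosome genes had a median of 0.03 with 0 higher and 0 lower by 2-fold, led by Cops3 (0.74) and Cops5 (0.33). Usp5, a protease that takes apart free ubiquitin chains, had 5461 and 4604 counts (log2 ratio -0.14). Spsb2, an adaptor of a ubiquitin ligase, had 1692 and 1079 counts (-0.54), and the orphan receptor gene Gpr162 had 190 and 117 (-0.54). These were the lowest log2 ratios of the listed measured genes after Pianp, but after the GC correction Cdca3 (-0.41) and Ncapd2 (-0.30) lay below Spsb2 (-0.23).

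Cell division genes of the interval stood below 0, short of 1.5-fold. Ncapd2, a condensin I subunit, had 884 and 607 counts (log2 ratio -0.43), and Cdca3, a trigger of mitotic entry, had 372 and 265 (-0.37). The other condensin and mitotic genes were mixed. Of 12 listed, 11 were found by symbol, all past the minimum, 1 was higher and 0 were lower by 2-fold, 7 lay above 0 and 4 below, and the median was 0.33. The 1 higher gene, the checkpoint kinase gene Bub1 with 47 and 105 counts (1.07), passed the minimum through the library labelled KO alone. Ncapg, another condensin I subunit gene, had a log2 ratio of 0.59. The condensin I subunit gene Ncaph (-0.54) and the mitotic kinase gene Cdk1 (-0.53), named after their values were seen, lay below Ncapd2 and Cdca3.

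Before the GC correction, ribosome biogenesis genes stood above 0 inside and outside the interval. Nop2, which methylates ribosomal RNA, had 1446 and 1749 counts (log2 ratio 0.38), and Emg1, a methyltransferase of the small ribosomal subunit, had 1797 and 1982 (0.25). Of 12 other biogenesis genes all 12 had a log2 ratio above 0, against 6807 of all 12382 measured genes. Their median was 0.38, and 0 were past 2-fold. Dkc1 (0.89), which encodes the RNA pseudouridine synthase dyskerin, and Nop58 (0.71), a core protein of the box C/D particles, led them. Under the GC correction Emg1 went to -0.01 and Nop2 to 0.51, and corrected values of the 12 others are not given.

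Among the enzymes and carriers of organelles in the interval, Pex5 and Phb2 were nearly level and Lpcat3 was somewhat higher. Pex5, the receptor that brings enzymes into peroxisomes, had 2710 and 2315 counts (log2 ratio -0.12), and the 11 other peroxisome import genes had a median of -0.04 with none past 2-fold, Pex13 at 0.55 and Pex6 at -0.52 being farthest from 0. Phb2, a prohibitin of the mitochondrial inner membrane, had 6613 and 5637 counts (-0.12). The 6 other inner membrane genes had a median of 0.10, led by Opa1 (0.33) and Afg3l2 (0.29). Lpcat3, which loads polyunsaturated acyl chains onto phospholipids, had 3318 and 4017 counts (0.38) and was 1.30-fold higher (1.25 to 1.37). The 8 other phospholipid remodelling genes had a median of -0.01 and none was past 2-fold, with Lpcat4 and Mboat2 both at -0.42.

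Genes for membrane traffic, channels and cell surface signalling were mostly low. Vamp1, a vesicle SNARE of neurons, had 147 and 155 counts (log2 ratio 0.17), and 9 other fusion genes had a median of 0.12, led by Vamp3 (0.91) and Snap23 (0.62), with none past 2-fold. Scnn1a, the alpha subunit of the epithelial sodium channel, had 38 and 50 counts (0.39, counting interval of the fold 0.911 to 2.22), and the genes of the other subunits had 1 and 0 counts (Scnn1b) and 0 in both (Scnn1g). Gnb3, the G protein beta subunit of cones and bipolar cells, had 2 and 0 counts. The 10 other G protein genes were all past the minimum, with a median of 0.17 and none past 2-fold. The largest ratios were those of Gnai1 (0.99, from 45 and 95 counts) and Gng12 (0.73). Gnai1 passed the minimum through the library labelled KO alone. Plekhg6, which encodes a guanine nucleotide exchange factor, had 213 and 152 counts (-0.35). Lpar5, a lysophosphatidic acid receptor gene, had 13 in each library, and Clstn3, a synaptic adhesion gene, had 42 and 30.

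The remaining genes included the most abundant ones. Ptms, which encodes the small acidic protein parathymosin, had 22923 and 18602 counts (log2 ratio -0.19), and Mlf2, a myeloid leukaemia factor gene that is widely expressed, had 14256 and 12377 (-0.10). Tapbpl, a peptide editor of MHC class I, had 361 and 300 (-0.15), and the small conserved gene Grcc10 had 325 and 232 (-0.36). Lrrc23 (4 counts in each) and Acrbp (26 and 6), known from sperm, were below the minimum.

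Per length the highest genes kept their order in both libraries, while Pianp moved by 11 ranks, Zfp384 from rank 20 to 14 and Cd4 from 27 to 23. Ptms (559 and 469.9 FPKM), Mlf2 (137 and 123), Tnfrsf1a, Ltbr and Phb2 (70.2 and 62.0) were the 5 highest in each. At 10 FPKM or more stood 14 genes in the library labelled WT and 13 in that labelled KO, and under 1 FPKM stood 11 and 10. Summed over the 27 measured genes the level was 3459 and 3155 CPM, and 3365 and 3148 CPM without Pianp.

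**Figure D5:**
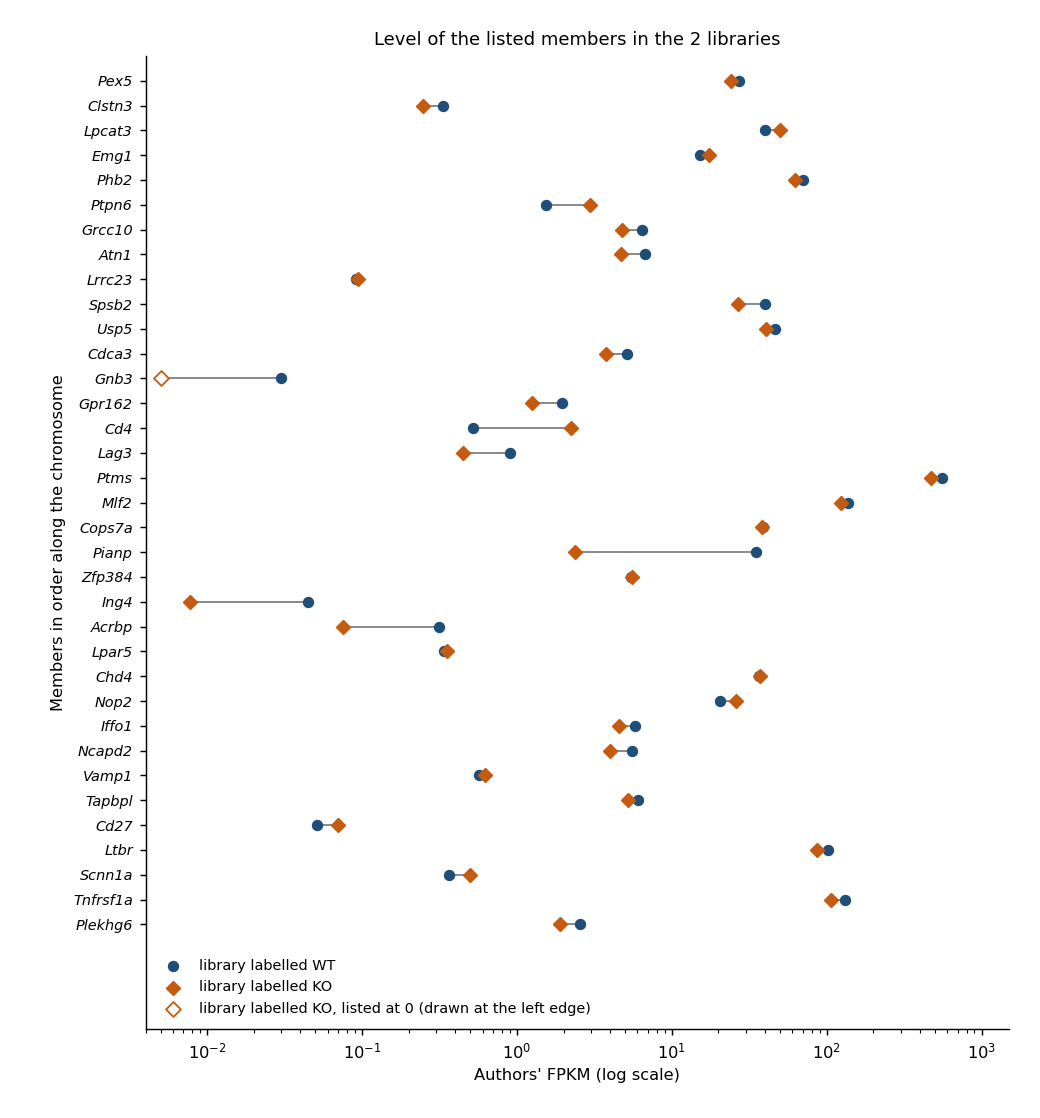
Each row is 1 of the 35 genes in chromosome order (y axis), with its level in the authors' FPKM on a log scale (x axis) as a blue circle for the library labelled WT and an orange diamond for that labelled KO, joined by a line. Most pairs of symbols lie close together, whereas Pianp shows a long line to the left, Cd4 and Ptpn6 lines to the right, and the other long lines belong to genes at few counts such as Ing4, Acrbp and Gnb3.

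Whether neighbours moved together was read from the differences between adjacent measured genes. Over the 36 adjacent pairs of the interval the median absolute difference in log2 ratio was 0.38, against 0.43 on chromosome 6 and 0.40 over 12350 pairs of all chromosomes. The sign was shared by 22 pairs (61.1%), against 58.8% over all chromosomes, and 8 pairs (22.2%) differed by 1 or more, against 13.6%. Without the pairs that hold Pianp the median was 0.35, the sign was shared by 64.7%, and 6 of 34 (17.6%) differed by 1 or more. Adjacent genes were thus neither clearly more alike nor clearly less alike here than over all chromosomes, and these small differences were not tested. After the GC correction described above, the median difference within the interval was 0.44, and no corrected value over all chromosomes is given. Medians of 5 successive genes ran from -0.54 to 0.25, with 26 of 33 such windows below 0 (24 of 32 without Pianp) and 0 at -1 or below. These windows overlap and are without the GC correction, and none were taken outside the interval. Nothing is therefore read from the share below 0.

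Distance from Pianp did not order the ratios. The median log2 ratio without Pianp was 0.04 for the 5 measured genes within 100 kb, -0.19 for the 17 within 200 kb, -0.15 for the 26 within 300 kb and -0.18 for the 36 within 500 kb. The listed genes before Pianp had a median of -0.12 (15 genes) and those after it -0.15 (11 genes). On the plus strand the median was -0.10 (13 genes, Pianp included) and on the minus strand -0.16 (14 genes). The 5 genes within 100 kb ranged from -0.19 to 0.08, so a fall of the size of that of Pianp was in none of them.

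The interval holds 3 pairs of measured genes that start head to head within 1 kb. Emg1 and Phb2 start 158 bases apart and their promoter windows share 210 bases, and their log2 ratios were 0.25 and -0.12, or -0.013 and -0.088 after the GC correction. Usp5 and Cdca3, 63 bases apart, stood at -0.14 and -0.37. Ncapd2 and the mitochondrial ribosome gene Mrpl51, 100 bases apart, stood at -0.43 and 0.35. The median difference over 562 such pairs on all chromosomes was 0.29, smaller than that of all adjacent genes, and 0.37 over these 3.

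The longest run of measured genes with the same sign, noticed after the values were seen, lay between Ptpn6 and Cd4. It held 9 genes from Grcc10 to Gpr162 over 124.8 kb, 6 of them listed, with log2 ratios from -1.20 to -0.14 and a median of -0.54. Besides the listed Grcc10, Atn1, Spsb2, Usp5, Cdca3 and Gpr162 it holds Eno2, Tpi1 and P3h3. After the GC correction 8 of the 9 were still below 0, with a median of -0.23. Of these genes 1, Eno2, was lower by 2-fold, and the run ends before Cd4, more than 100 kb from Pianp.

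Genes of the interval outside the list included 3 that were lower by 2-fold. Of 38 such genes 28 were below the minimum, none with more than 6 counts, and of the 10 measured 0 were higher by 2-fold and the median was -0.63. The complement protease genes C1rb (254 and 19 counts, 12.4-fold lower, 7.78 to 20.9) and C1s2 (488 and 30, 15.1-fold lower, 10.4 to 22.6) and the neuronal enolase gene Eno2 (2321 and 930, 2.32-fold lower, 2.15 to 2.50) were the 3. C1rb and C1s2 are copies of their neighbours: C1rb matched C1ra over 2432 bases at 97.9% identity and C1s2 matched C1s1 over 2644 bases at 96.0%, so their reads may be shared. C1ra (log2 ratio -0.39), C1s1 (-0.19) and C1rl (-0.10) lay much nearer 0. The triose phosphate isomerase gene Tpi1 had 39591 and 19296 counts (-0.93) and the collagen prolyl hydroxylase gene P3h3 8222 and 5109 (-0.58). Gapdh, which has matching sequence in 90 other genes, had only 129 and 70 counts (-0.68), and the microRNA genes Mir200c and Mir141 had 0 in both. With them included, 4 of 37 measured genes of the interval (10.8%) were lower by 2-fold, against 2.82% of all measured genes, 1 was higher (2.70%) and the median was -0.19. Since 1 of the 4 is Pianp, which selected the region, nothing is read from this share. Without Pianp 3 of 36 were lower, the copies C1rb and C1s2 among them, and the median was -0.18.

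Since the library labelled KO came from mice said to lack miR-29a, the listed genes were searched for its site. The microRNA is shown with its seed, bases 2 to 8, in capitals, followed by sites in the listed genes, with the heptamer TGGTGCT that pairs with the seed in capitals and 11 bases on either side, as read from GENCODE M21 transcripts (GRCm38). The microRNA sequence is that of RefSeq (GRCm38.p6), encoded at chr6:31062673-31062694 on the minus strand.
mmu-miR-29a-3p: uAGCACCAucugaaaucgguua
Zfp384, chr6:125036970-125036976 (plus strand): aaactggggctTGGTGCTtgagagaagga
Ing4, chr6:125048674-125048680 (plus strand): cttggtgaggtTGGTGCTgtatttcagag
Iffo1, site 1, chr6:125160963-125160969 (plus strand): ggattttgtacTGGTGCTaacttgcctag
Iffo1, site 2, chr6:125161207-125161213 (plus strand): ctgcaggttacTGGTGCTcggggcctgtt
Ltbr, chr6:125306817-125306823 (minus strand): gcaaagctttgTGGTGCTcatccctacct
Tnfrsf1a, chr6:125362124-125362130 (plus strand): agccacttcctTGGTGCTaccaacttggt
Of the 34 listed genes with an annotated 3′ UTR, 6 carried the heptamer (Iffo1 at 2 places), against 16.1% of 11585 measured protein-coding genes. Pianp, Cd4 and Ptpn6 carried none. The 5 of these genes past the minimum had a median log2 ratio of -0.16 (range -0.27 to 0.07) and the 22 measured genes without a site a median of -0.13. Over all genes searched the medians were 0.14 with and 0.05 without the heptamer, both without the GC correction, so nothing is read from their order. After the GC correction the order of the listed genes turned, with medians of 0.013 with a site and -0.014 without, so these few genes show no clear difference either way.

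Of the 35 genes 25 had a RefSeq promoter window, and Cd4, Usp5, Scnn1a, Gnb3, Gpr162, Plekhg6, Lag3, Atn1, Iffo1 and Tapbpl had no entry. Only the window at the most upstream start of each of the 25 genes was used here. The comparison is with all 32851 windows, which hold every start of 27025 genes, so the sets are unlike. The 25 windows had a median of 17 CG dinucleotides (7 to 36) against 7, and a median GC content of 59.7% against 52.7%. Windows of later starts ran outside that range, with 39 for 1 of Pex5 and 3 for 1 of Zfp384. GGGCGG occurred on either strand in 76% of the 25 windows against 35.7% of all windows, CCGGAAG in 32% against 8.86%, CCAAT in 28% against 37.4% and TATAAA in 0 against 13.6%. Pianp held none of these 4 motifs at its most upstream start, and Ptpn6 held GGGCGG 5 times with 8 CG dinucleotides. Such matches describe the letters of the window and say nothing of a bound factor.

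Shared exons limit a few values. The library kit does not mark strand, so reads from overlapping exons cannot be assigned to 1 gene. By the GENCODE M21 annotation 14 of the 35 genes overlap an exon of another gene. Atn1 shares 84.2% of its exonic bases and Grcc10 20.2% with the readthrough gene Gm45234, which had 2 and 0 counts. Ing4 shares 34.9% and Acrbp 29.8% with Gm44597, which had 1 and 0. Lpcat3 and Emg1 share 334 bases on opposite strands, Iffo1 and Gapdh 68, and Spsb2 and Tpi1 34. By sequence, 25.6% of the Zfp384 transcript and 8.59% of that of Tapbpl matched other genes, and the other 33 listed genes had no such match. Pianp, Cops7a and Cd4 overlap no other annotated exon and had no such match.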

How the data were processed

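RNA-seq was compared in 2 libraries, 1 per group. Per the file headers, the authors' tables give a read count per gene and the authors' FPKM per gene. HISAT2 and mm10 (GRCm38) are named in the submitters' processing notes. For the counter, its annotation and its strand setting, nothing is given in the sources used here. Ribosomal RNA was removed with Ribo-Zero and the NEBNext Ultra RNA kit does not mark strand, per the labels' protocols.

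CPM is each deposited count over its library total. Log2 ratios (KO over WT) were taken after adding 0.5 CPM, and genes needed 50 counts in the higher library. FPKM served for levels per length and as an alternative. Left out were 4 genes whose counts and FPKM did not keep 1 ratio (tolerance 1%) across the tables. Folds of CPM carry 95% Clopper-Pearson intervals. No test was possible, and edgeR was used only for TMM factors. The median-of-ratios factors follow the method of DESeq2, computed directly. Whether the mice pooled in a library vary cannot be seen from 1 library.

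Positions, exons and transcripts came from GENCODE M21, and promoter and microRNA sequences from RefSeq (GRCm38.p6). Copies were blastn matches of 200 bases or more at 95% identity. The genes near Pianp, the gene lists and the alternatives were chosen with earlier results of these data known. All 35 genes are named with their counts. A few marker genes and 1 site sequence that these rules take in are not reported here. Of each other list the 2 measured genes with the largest absolute log2 ratio and the defining markers at 0 are named, with low ligand and receptor genes by counts. Of the other genes of the interval, those past 2-fold or left out of the list by its rule are named. Genes outside these rules (Stmn2 for its level, P3h3, and Cd163, Clec4d, Clec4n and Cd9 beside the interval) were named after their values were seen or by position. The procedure was tested on simulated counts. Alternatives were other scalings, pseudocounts, minimums, thresholds, GC and length correction, and FPKM. Tools were blastn 2.17.0, edgeR 4.0.16 in R 4.3.3, and Python 3.11.15 with scipy 1.17.1, pandas 2.3.3, numpy 2.4.6 and matplotlib 3.10.9.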

Additional observations from a re-analysis of the deposited data

How the results depend on the processing

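The median log2 ratio of the 27 measured genes, -0.14, moved to -0.20 with median-of-ratios factors and to -0.013 with the GC correction, and the median of all measured genes of the interval, -0.19, moved to -0.088 with the GC correction. The number of genes higher by 2-fold, 1, became 2 with the GC correction, 2 at a threshold of 1.5-fold and 0 at 4-fold. The number lower, 1, became 0 when Pianp was left out. Under TMM factors, a trimmed library total, pseudocounts of 0.1 or 2 CPM, minimums of 200 counts or of 1, length correction and FPKM, the median ran from -0.19 to -0.14 and both numbers stayed at 1. For single genes, 179 of 216 values over the 8 settings that can change a ratio stayed within the counting interval of the main value, and 0 of the values past 2-fold changed sign. Pianp ran from -3.79 to -3.40, Cd4 from 1.43 to 2.11 and Ptpn6 from 0.74 to 1.05. No scaling moved the median of all genes by more than 0.1. No paired analysis was possible because each group has 1 library. Depth limits the 8 genes below the minimum, and no replicate shows how far any ratio would vary between mice.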
